A study of Mus musculus with 9 samples.

Results

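Integrins, cadherins and other cell adhesion molecules were followed in 3T3-L1 pre-adipocytes, mouse fibroblasts used as a model of fat cell formation. The 36 genes were listed by name, with earlier results of these data known. They comprise 12 alpha integrin subunits, 6 beta integrin subunits, 7 cadherins, 6 surface molecules of the immunoglobulin superfamily, 3 other surface molecules and 2 matrix ligands. Of them, 35 had a probe set that the platform annotation assigns to that gene alone, among 22180 such genes in all, and Itga10 was unnamed here. Each gene was read from its brightest probe set over the 9 arrays. Of the 35 genes, 27 passed a filter on dim signals, which left 12630 genes of the whole array for testing.

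There were 3 groups of 3 arrays. In the first, cells had been transfected with an siRNA against CD24 and then given IBMX and dexamethasone (IBMX/Dex). In the second, a scrambled siRNA preceded the same IBMX/Dex treatment, and the third received vehicle. IBMX, a phosphodiesterase inhibitor that raises cAMP, was used at 0.5 mM and dexamethasone, a synthetic glucocorticoid, at 1 µM, both for 6 h. All cells were confluent and had been held in growth arrest for 48 h. The siRNA dose was 100 nmol in 12-well plates. The study asked how knocking down CD24, a small glycosylated surface protein, alters the early response to IBMX/Dex. Whether the vehicle cells were transfected is not stated, so transfection and IBMX/Dex cannot be told apart in the comparisons with vehicle. Nor is it stated that the replicates are separate cultures; p-values here cover the spread among these samples, which may be technical.

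Integrins are heterodimers of an alpha and a beta subunit that bind matrix proteins outside the cell and link them, through talin, kindlin and other adaptors, to the actin cytoskeleton. Cadherins join neighbouring cells by calcium-dependent binding and are tied to actin through catenins, while immunoglobulin superfamily molecules bind one another, integrins or the matrix. During adipose conversion fibroblasts round up and replace a fibronectin-rich matrix with one rich in laminin and collagen, and in 3T3-L1 cells this has been described together with a switch from Itga5 to Itga6.

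Of 12 pre-adipocyte and fibroblast markers, 11 were measured and 8 passed the filter (Pdgfra, Pdgfrb, Dlk1, Col1a1, Col1a2, Col3a1, Vim and Dcn), while Fap, Lum and Zfp423 lay below it. Markers of other cell types passed in part: 2 of 7 for mature fat cells (Pparg and Fabp4), 4 of 8 for macrophages (Cd14, Cd68, Csf1r and Lyz2), 1 of 7 for endothelium (Cdh5), 2 of 6 measured for epithelium (Krt8 and Krt14), 5 of 7 for skeletal muscle (Tnnt2, Des, Acta1, Myog and Myod1) and 3 of 7 measured for bone and cartilage (Sox9, Col2a1 and Alpl). Adipoq, Plin1, Ptprc, Pecam1, Epcam and Ckm were among those below it. The siRNA target Cd24a read 10.15, 10.16 and 11.72 with CD24 siRNA, 11.19, 11.73 and 11.81 with scrambled siRNA and 8.88, 9.92 and 9.49 with vehicle, in replicate order. The array labelled CD24 siRNA replicate 3 thus stood close to its scrambled counterpart and apart from the other CD24 siRNA arrays, and the counts and main values with CD24 siRNA are also given without it. Arrays with the same replicate number deviated together, and limma fits with the number as a block are given where they change a call.

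All values below are log2 expression. Probe sets differ in brightness for reasons other than RNA level, so a gene is compared between arrays and not with other genes. Itga4, Itga8, Itga9, Itga11, Itgb4, Itgb8, Cdh3 and Cdh10 were the 8 genes below the filter, with means over the 9 arrays between 5.14 and 6.49. Itgb4 reads as the same number on 5 arrays, and so does Cd34, which was tested. A number repeated on 5 or more arrays held for 0.871% of all genes tested, and small differences of these genes carry little information. Repeats on 2 or more arrays held for 26.7% of all genes tested. Alcam and Cd44 read the same number on CD24 siRNA replicates 1 and 2, so without replicate 3 that group shows no spread for them.

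Among the 27 tested genes, 5 changed in cells given IBMX/Dex with CD24 siRNA relative to vehicle, and the same 5 changed with scrambled siRNA. Itga3, Ncam1 and Mcam rose, and Itgb5 and Vcam1 fell. The share was 18.5% in each comparison, against 6.65% of all genes tested with CD24 siRNA and 6.94% with scrambled siRNA (limma, adjusted p under 0.05). By direction, 2.92% of all genes were higher and 3.73% lower with CD24 siRNA, and 3.33% were higher and 3.60% lower with scrambled siRNA. These comparisons share the 3 vehicle arrays, so they are not independent of each other. The median difference of the 27 genes was 0.11 with CD24 siRNA and 0.15 with scrambled siRNA, beside 0.02 over all genes in each. In bulk RNA, fewer cells expressing a gene and less of its RNA per cell cannot be told apart.

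With the replicate number as a block, 8 of the 27 genes passed with CD24 siRNA (6 higher, 2 lower; 29.6%) and 9 with scrambled siRNA (7 higher, 2 lower; 33.3%). The matching shares of all genes tested were 22.4% (10.4% higher, 12.1% lower) and 23.3% (11.9% higher, 11.4% lower). The additional genes were Itga5 and Itgb3 in both comparisons, Itgb7 with CD24 siRNA, and Cd44 and Alcam with scrambled siRNA. Values of the treated arrays did not overlap those of vehicle for 9 genes in each comparison (7 higher, 2 lower; 33.3%), against 25.8% of all genes with CD24 siRNA (12.1% higher, 13.7% lower) and 25.2% with scrambled siRNA (12.8% higher, 12.4% lower). The shares in the blocked fit and of groups without overlap were therefore nearer to those of all genes than the share without the block. With the block and replicate number 1, 2 or 3 left out, 7, 9 and 7 genes passed with CD24 siRNA. The counts with scrambled siRNA were 5, 7 and 7. Over all 12630 genes the same fits called 1299, 1755 and 1528 with CD24 siRNA and 1351, 1792 and 1758 with scrambled siRNA. Without number 1 the 5 genes with scrambled siRNA were all higher, where 728 of all genes were higher and 623 lower.

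Without CD24 siRNA replicate 3, 2 of the 27 genes passed with CD24 siRNA in the fit without the block, Mcam higher and Vcam1 lower (7.41%), against 2.54% of all genes. With the block 8 passed (6 higher, 2 lower; 29.6%), against 14.0% of all genes; they were Itga3, Itga5, Itgb3, Itgb5, Vcam1, Ncam1, Mcam and Alcam. The remaining treated arrays did not overlap vehicle for 10 genes (7 higher, 3 lower; 37.0%), against 34.4% of all genes.

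Fibroblast markers differed from vehicle in the same comparisons. Of the 8 tested, 2 fell with CD24 siRNA and 2 with scrambled siRNA, where 3.73% and 3.60% of all genes were lower. In the blocked fit 4 and 5 fell, where 12.1% and 11.4% of all genes were lower. Leaving out CD24 siRNA replicate 3, the counts with CD24 siRNA were 1 and 4. Pdgfra and Pdgfrb, receptors for platelet-derived growth factor, fell 2.15-fold and 3.05-fold with CD24 siRNA (limma adjusted p = 0.0160 and 0.00206) and 2.05-fold and 3.15-fold with scrambled siRNA (0.0185 and 0.00154). Dlk1, Vim and Dcn passed in neither fit, with differences between -0.14 and -0.06. The mean of the 11 measured fibroblast markers, with those below the filter included, was 9.71 to 9.78 on the CD24 siRNA arrays, 9.67 to 9.81 on the scrambled siRNA arrays and 10.14 to 10.22 on the vehicle arrays. Of the other marker lists, Des of skeletal muscle was lower and Alpl of bone higher in each comparison without the block. The part of these markers in the values of the adhesion genes was not tested.

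**Figure D1:**
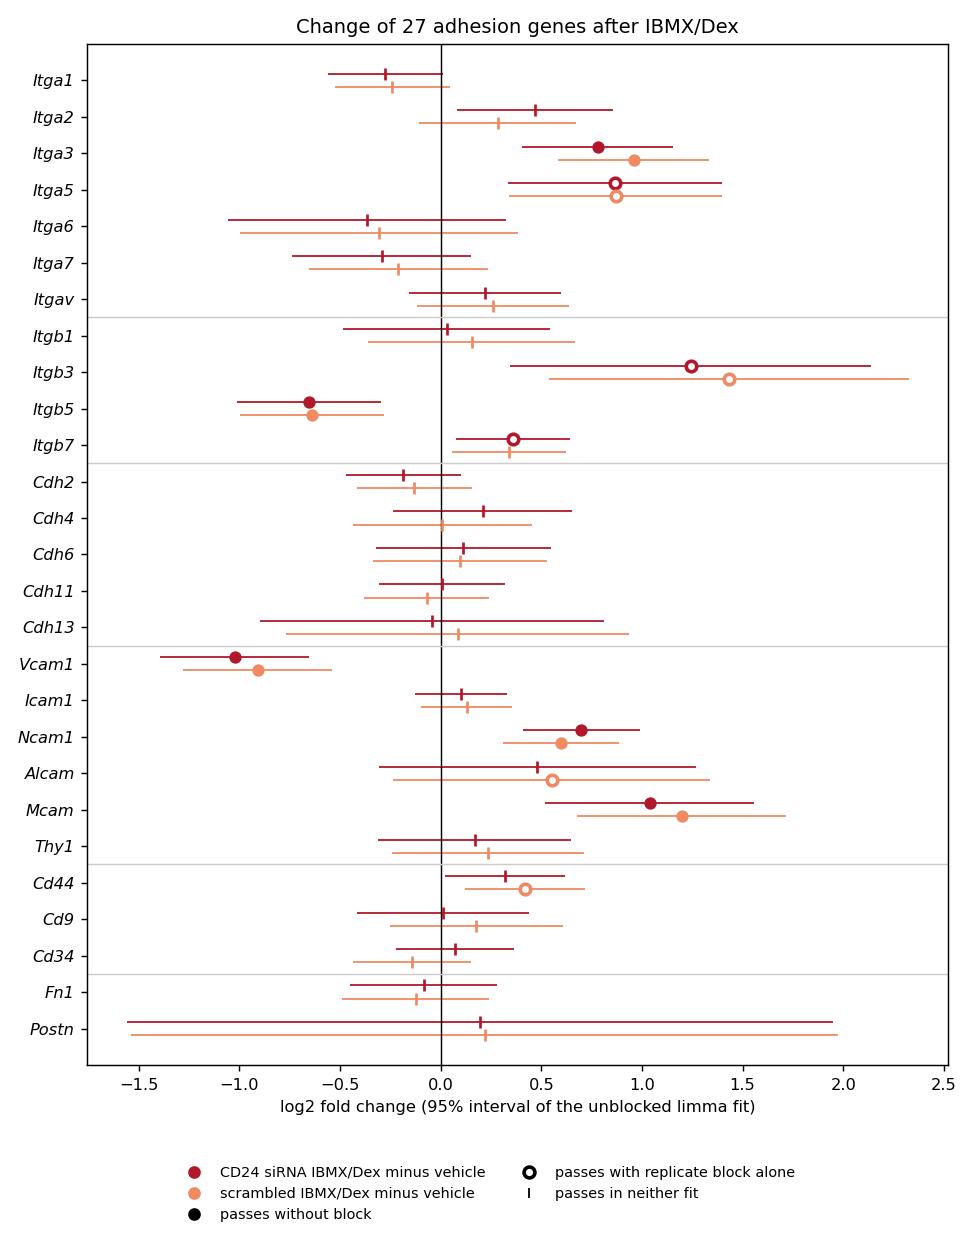
Log2 fold change of the 27 tested adhesion genes against vehicle, ordered by role, for CD24 siRNA IBMX/Dex (dark red, upper line of each pair) and scrambled IBMX/Dex (orange, lower line), with 95% intervals of the unblocked limma fit. Filled points passed without the replicate block, open rings only with it and ticks in neither; Itga3, Ncam1 and Mcam lie right of 0 and Itgb5 and Vcam1 left of it in both comparisons.

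Among the tested alpha integrins, only Itga3, a laminin receptor subunit that pairs with Itgb1, passed without the block over all arrays. Its level was 8.78, 8.85 and 8.97 with CD24 siRNA, 8.92, 9.01 and 9.20 with scrambled siRNA, and 8.33, 7.71 and 8.22 with vehicle. All 6 treated arrays lay above all 3 vehicle arrays. Itga3 rose 1.72-fold with CD24 siRNA (0.78 ± 0.17 on the log2 scale, SE; limma adjusted p = 0.0272) and 1.94-fold with scrambled siRNA (0.96 ± 0.17, adjusted p = 0.0118). Laminin is the main ligand of this receptor, and the level of Lamc1, a laminin chain described further on, was also higher. Of the 19 tested matrix ligands of integrins, however, 12 had a negative difference with CD24 siRNA and 11 with scrambled siRNA. A link between Itga3 and these ligands was not tested. In fits without 1 array, the CD24 siRNA call of Itga3 was lost without vehicle replicate 3 or without any 1 of the CD24 siRNA arrays (limma adjusted p between 0.0535 and 0.0998), and the scrambled siRNA call without scrambled replicate 3 (adjusted p = 0.0559).

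Itga5, which forms the classical fibronectin receptor with Itgb1, read 12.25, 12.10 and 12.37 with CD24 siRNA, 12.19, 12.14 and 12.40 with scrambled siRNA, and 11.69, 10.75 and 11.67 with vehicle. The groups did not overlap, but vehicle replicate 2 lay almost 1 log2 unit below the other vehicle arrays. The difference was 0.87 ± 0.24 (SE) in either comparison. It missed the threshold without the block (limma adjusted p = 0.0630 with CD24 siRNA, 0.0606 with scrambled siRNA) and passed with it (0.00547 and 0.00523). Without vehicle replicate 2 the difference was smaller, 0.55 and 0.56, with limma adjusted p = 0.0498 in both comparisons, and without vehicle replicate 1 it was 1.03 in both (adjusted p = 0.0491 and 0.0476). Without CD24 siRNA replicate 3 the difference with CD24 siRNA was 0.80 (adjusted p = 0.177), and the blocked fit gave 0.91 (0.0186).

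Itga6, the laminin receptor subunit named with Itga5 in the described switch, behaved differently across the vehicle arrays. It read 9.20, 9.14 and 9.14 with CD24 siRNA, 9.14, 9.20 and 9.31 with scrambled siRNA, and 9.78, 8.67 and 10.12 with vehicle. The 6 treated arrays lay within a narrow band, while vehicle replicates 1 and 3 lay above it and vehicle replicate 2 below it. Over all arrays the difference was -0.37 ± 0.31 with CD24 siRNA and -0.31 ± 0.31 with scrambled siRNA (SE; limma adjusted p = 0.542 and 0.612). Without vehicle replicate 2 it was -0.79 (adjusted p = 0.0160) and -0.74 (adjusted p = 0.0205), so the call rests on whether that array is included. Leaving out CD24 siRNA replicate 3 gave -0.36 with CD24 siRNA (limma adjusted p = 0.666). Vehicle replicate 2 was the lowest vehicle array for 16 of the 27 genes (59.3%), and for 47.3% of all genes tested.

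Itga7, a further laminin-binding subunit, had the same arrangement. It read 6.96, 6.71 and 6.94 with CD24 siRNA, 6.92, 6.91 and 7.02 with scrambled siRNA, and 7.30, 6.67 and 7.51 with vehicle. Vehicle replicate 2 was again the lowest vehicle array, and the groups overlapped through it. Without it the difference was -0.54 with CD24 siRNA (limma adjusted p = 0.0516) and -0.46 with scrambled siRNA (adjusted p = 0.0844), and over all arrays -0.29 and -0.21 (adjusted p = 0.437 and 0.587). With CD24 siRNA replicate 3 left out, the CD24 siRNA difference was -0.33 (limma adjusted p = 0.512). The collagen-binding subunits Itga1 and Itga2 lay near the filter, with differences of -0.28 and 0.47 with CD24 siRNA and -0.24 and 0.28 with scrambled siRNA. Neither passed in either fit over all arrays. Itgav, the partner of Itgb3 and Itgb5, differed by 0.22 and 0.26 and did not pass without the block (limma adjusted p = 0.497 and 0.406) or with it (0.105 and 0.0617). Its dimmer second probe set (mean 6.19) gave differences of -0.26 with CD24 siRNA and -0.17 with scrambled siRNA, in the other direction.

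Itgb5 and Itgb3, which can each pair with Itgav to bind vitronectin, differed from vehicle in opposite directions. Itgb5 was lower in both fits, and Itgb3 was higher with a call only under the block. Itgb5 read 9.219, 8.995 and 8.916 with CD24 siRNA, 9.04, 8.94 and 9.20 with scrambled siRNA, and 9.70, 9.41 and 9.98 with vehicle. Every treated array was below every vehicle array. Itgb5 fell 1.57-fold with CD24 siRNA (-0.65 ± 0.16 SE, limma adjusted p = 0.0423) and 1.56-fold with scrambled siRNA (-0.64 ± 0.16, adjusted p = 0.0451). These calls are close to the threshold. Leaving out any 1 array other than vehicle replicate 2 ended both (limma adjusted p between 0.0564 and 0.136 with CD24 siRNA and between 0.0571 and 0.132 with scrambled siRNA), as did testing all genes with no filter or centring arrays on their medians. With the block the adjusted p was 0.00770 and 0.00823, but the blocked calls were lost on leaving out replicate number 3 with CD24 siRNA (limma adjusted p = 0.0559) and number 1 with scrambled siRNA (0.0716).

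Itgb3 read 10.09, 9.14 and 8.96 with CD24 siRNA, 10.40, 9.23 and 9.13 with scrambled siRNA, and 8.50, 7.71 and 8.25 with vehicle. Replicate 1 was the highest array in every group, and all treated arrays lay above all vehicle arrays. Its differences had the largest absolute size among the 27 genes, 1.24 ± 0.40 with CD24 siRNA (2.36-fold) and 1.43 ± 0.40 with scrambled siRNA (2.70-fold; SE). Without the block it did not pass (limma adjusted p = 0.102 and 0.0653). Within the numbers the same-numbered differences were 1.58, 1.43 and 0.71 with CD24 siRNA and 1.89, 1.52 and 0.88 with scrambled siRNA, and the blocked limma fit gave adjusted p = 0.00141 and 0.000640. In that fit Itgb3 also passed on leaving out any 1 replicate number (adjusted p at most 0.0262), and without CD24 siRNA replicate 3 (0.00384 and 0.000854).

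Itgb1, the partner shared by most alpha subunits listed here, did not pass in either fit. It read 10.43, 9.84 and 9.93 with CD24 siRNA, 10.53, 9.96 and 10.08 with scrambled siRNA, and 10.34, 9.68 and 10.09 with vehicle. The groups overlapped and replicate 1 was highest in each. Its interval against vehicle ran from -0.48 to 0.54 with CD24 siRNA and from -0.36 to 0.67 with scrambled siRNA (95%, limma without the block). Itgb7, known mainly from leukocytes, was dim at 6.77, 6.63 and 6.85 with CD24 siRNA, 6.83, 6.70 and 6.66 with scrambled siRNA, and 6.61, 6.36 and 6.21 with vehicle. The treated arrays lay above the vehicle arrays, by 0.36 with CD24 siRNA and 0.34 with scrambled siRNA. Vehicle replicates 2 and 3 lay below the filter's cut of 6.51, so Itgb7 passed the filter through its treated arrays. With the block the limma adjusted p was 0.0434 with CD24 siRNA and 0.0511 with scrambled siRNA, and without it 0.131 and 0.149. The blocked call with CD24 siRNA was lost on leaving out CD24 siRNA replicate 3, while the scrambled siRNA comparison then passed (limma adjusted p = 0.0367). Leaving out any 1 replicate number also ended the blocked call with CD24 siRNA.

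**Figure D2:**
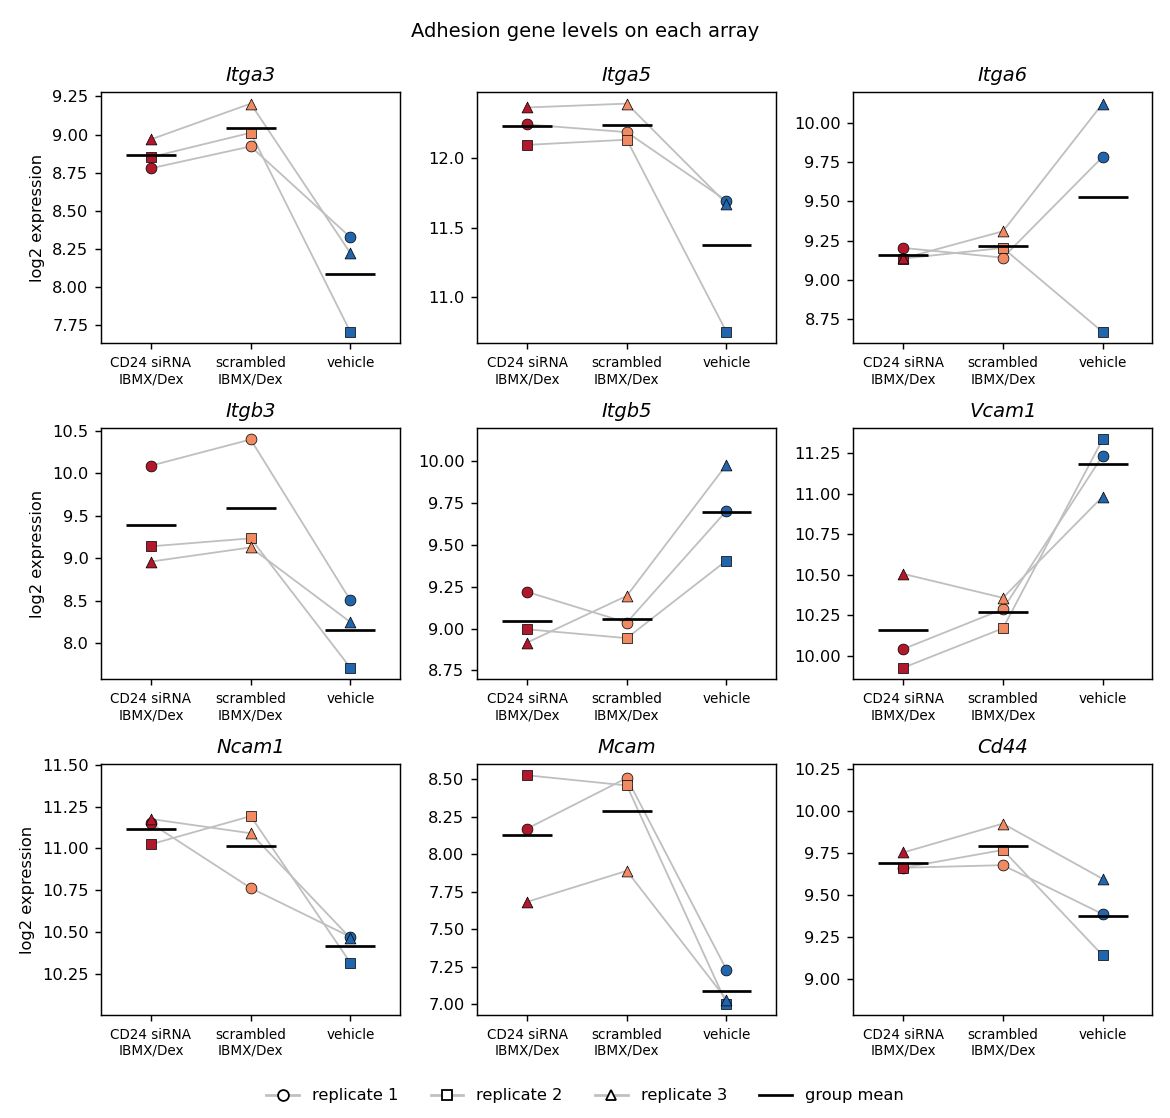
Log2 expression of 9 adhesion genes on each array, for CD24 siRNA IBMX/Dex, scrambled IBMX/Dex and vehicle from left to right, with symbols for the replicate number, grey lines joining arrays of the same number and black bars for group means. Vehicle replicate 2 lies far below the other vehicle arrays for Itga5 and Itga6, and for Vcam1 and Itgb5 all vehicle arrays lie above all treated arrays.

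None of the 5 tested cadherins passed in either comparison or fit, and none had an unadjusted limma p under 0.05 without the block. Of the 7 measured, 5 lay above the filter. The smallest limma adjusted p was 0.268 with CD24 siRNA and 0.438 with scrambled siRNA, both with the block. Of all genes, 6.65% and 6.94% were called without the block and 22.4% and 23.3% with it. With 5 genes, this count does not set cadherins apart from all genes. Cdh11 read 11.75, 11.90 and 12.04 with CD24 siRNA, 11.55, 11.95 and 11.94 with scrambled siRNA, and 11.94, 11.94 and 11.78 with vehicle. The groups overlapped. The interval of Cdh11 against vehicle was -0.31 to 0.32 with CD24 siRNA and -0.38 to 0.24 with scrambled siRNA, and that of Cdh2 (N-cadherin, the mesenchymal classical cadherin) -0.47 to 0.10 and -0.42 to 0.16 (95%, limma without the block). For both genes changes of 1.5-fold or more thus lay outside the interval on either side, also without CD24 siRNA replicate 3 (-0.42 to 0.29 for Cdh11 and -0.33 to 0.20 for Cdh2 with CD24 siRNA). Cdh4 and Cdh6 were dim, with differences between 0.01 and 0.21. Cdh13, T-cadherin, a receptor for adiponectin without a cytoplasmic tail, differed by -0.04 and 0.08, and its spread followed the replicate numbers.

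All 6 immunoglobulin superfamily molecules were tested, and 3 of them changed in both comparisons (50.0%). The shares of all genes were 6.65% with CD24 siRNA and 6.94% with scrambled siRNA, and the list is small. Vcam1, a ligand of Itga4-containing integrins, read 10.04, 9.93 and 10.51 with CD24 siRNA, 10.29, 10.17 and 10.36 with scrambled siRNA, and 11.23, 11.33 and 10.98 with vehicle. The vehicle arrays were all above the treated ones. Vcam1 fell 2.03-fold with CD24 siRNA (-1.02 ± 0.16 SE, limma adjusted p = 0.00852), and the call held on leaving out any 1 array (adjusted p at most 0.0376). With scrambled siRNA it fell by 0.91 ± 0.16 (SE; limma adjusted p = 0.0140), and without scrambled replicate 2 the adjusted p was 0.0508. In the blocked fit that call was lost without replicate number 1 (limma adjusted p = 0.0547). Icam1, a ligand of leukocyte integrins, was dim at means of 6.62, 6.65 and 6.52 in the 3 groups in the same order, and did not pass.

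Mcam, a receptor of endothelial and perivascular cells that binds laminin, read 8.17, 8.53 and 7.68 with CD24 siRNA, 8.51, 8.46 and 7.89 with scrambled siRNA, and 7.230, 7.003 and 7.031 with vehicle. All treated arrays were above all vehicle arrays, and replicate 3 was lowest in both treated groups. Mcam rose 2.05-fold with CD24 siRNA (1.04 ± 0.23 SE, limma adjusted p = 0.0317) and 2.29-fold with scrambled siRNA (1.20 ± 0.23, adjusted p = 0.0178). In fits without 1 array the call with CD24 siRNA was lost without vehicle replicate 2 or 3, or CD24 siRNA replicate 1 or 2 (limma adjusted p between 0.0775 and 0.0968), and that with scrambled siRNA without scrambled replicate 1 or 2 or vehicle replicate 2 or 3 (between 0.0534 and 0.0616). With the block the adjusted p was 0.00171 and 0.000791, and it stayed under 0.05 on leaving out any 1 replicate number.

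Ncam1, the neural cell adhesion molecule, which binds itself on neighbouring cells, read 11.15, 11.03 and 11.18 with CD24 siRNA, 10.76, 11.19 and 11.09 with scrambled siRNA, and 10.47, 10.32 and 10.46 with vehicle. The treated arrays were all higher, with the smallest gap at scrambled replicate 1. Ncam1 rose 1.62-fold with CD24 siRNA (0.70 ± 0.13 SE, limma adjusted p = 0.0160) and 1.51-fold with scrambled siRNA (0.60 ± 0.13, adjusted p = 0.0276). The call with CD24 siRNA was lost without CD24 siRNA replicate 1 or 3 (limma adjusted p = 0.0598 and 0.0632), and that with scrambled siRNA without scrambled replicate 2 or 3 or vehicle replicate 2 or 3 (between 0.0646 and 0.104). The blocked call with scrambled siRNA was lost without replicate number 2 or 3 (limma adjusted p = 0.0612 and 0.0524).

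Alcam, which binds itself and CD6, read 8.53, 8.53 and 8.80 with CD24 siRNA, 8.50, 8.26 and 9.30 with scrambled siRNA, and 7.99, 7.54 and 8.88 with vehicle. Replicate 3 was the highest array in each group and the groups overlapped. With scrambled siRNA the difference was 0.55 ± 0.35 (SE), with limma adjusted p = 0.396 without the block and 0.0441 with it. With CD24 siRNA it was 0.48 ± 0.35, with adjusted p = 0.476 and 0.0730, and 0.73 (0.0107) in the blocked fit without CD24 siRNA replicate 3. The CD24 siRNA arrays left in that fit read the same number for Alcam. Leaving out replicate number 1 or 2 ended the blocked call with scrambled siRNA. Thy1, a glycolipid-anchored fibroblast surface protein, differed by 0.17 and 0.24 and did not pass.

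Of the 3 other surface molecules, Cd44, the hyaluronan receptor, read 9.66, 9.66 and 9.75 with CD24 siRNA, 9.68, 9.77 and 9.93 with scrambled siRNA, and 9.39, 9.14 and 9.60 with vehicle. Treated and vehicle arrays did not overlap, by a narrow margin at vehicle replicate 3. The difference was 0.32 ± 0.13 with CD24 siRNA (SE; limma adjusted p = 0.196, and 0.0559 with the block) and 0.42 ± 0.13 with scrambled siRNA (0.0969, and 0.0190 with the block). Leaving out CD24 siRNA replicate 3, the CD24 siRNA difference was 0.29 (limma adjusted p = 0.369, and 0.0772 with the block). The CD24 siRNA arrays left there read the same number for Cd44. The blocked call of Cd44 with scrambled siRNA was lost on leaving out any 1 replicate number. The tetraspanin Cd9 differed by 0.01 and 0.18, and Cd34, a sialomucin of progenitor cells, by 0.07 and -0.14. Neither passed. The second probe set of Cd9 (mean 6.63) gave 0.26 and 0.08.

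The matrix ligands Fn1 and Postn (periostin) also did not pass. Fn1 read 12.97, 13.06 and 13.27 with CD24 siRNA, 12.73, 13.13 and 13.32 with scrambled siRNA, and 13.10, 13.12 and 13.34 with vehicle. The groups overlapped, with 95% intervals against vehicle of -0.45 to 0.28 and -0.49 to 0.24 (limma). Without CD24 siRNA replicate 3 the CD24 siRNA arrays lay below vehicle, with an interval of -0.58 to 0.25. Postn read 11.29, 10.11 and 9.66 with CD24 siRNA, 11.32, 10.67 and 9.14 with scrambled siRNA, and 11.33, 10.62 and 8.52 with vehicle. Here arrays lined up by replicate number and not by group.

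The replicate number accounted for a large share of the variation in several genes. Splitting the sum of squares over the 9 arrays into group, number and rest, the number held 92.9% for Cdh13, 89.8% for Postn, 88.6% for Itgb1 and 74.0% for Fn1. The means of Postn by number were 11.31, 10.46 and 9.11, whereas its group means were 10.35, 10.38 and 10.16. By contrast the group held 87.4% for Vcam1, 86.9% for Ncam1, 84.8% for Itga3 and 80.2% for Mcam. The number was the largest component for 12 of the 27 genes (44.4%) and for 43.2% of all genes tested, and the group for 11 genes (40.7%) and for 34.8% of all genes. What the numbers stand for is not given in the labels' titles, and its part in these values was not tested.

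**Figure D3:**
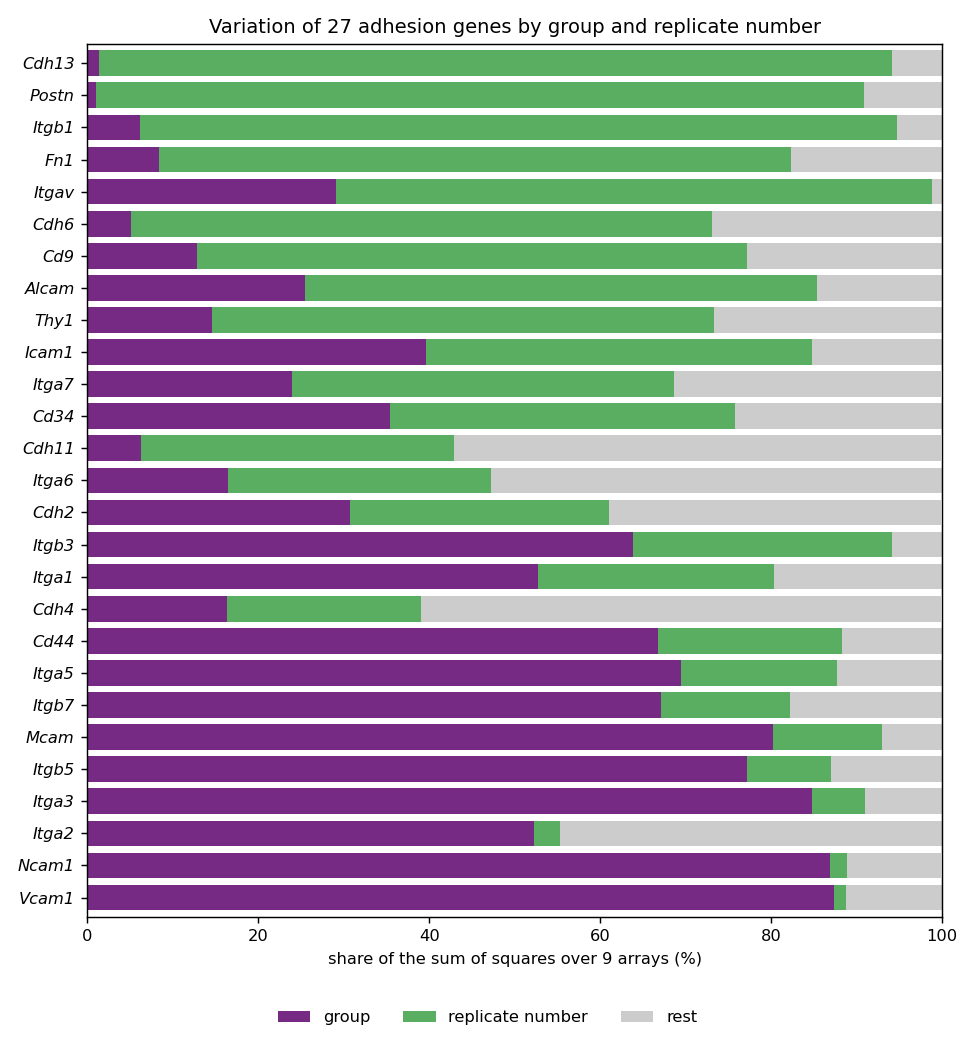
Share of the sum of squares over 9 arrays, in percent, held by group (purple), replicate number (green) and the rest (grey) for each of the 27 tested adhesion genes, ordered by the share of the number. Cdh13 and Postn vary mainly with the number (92.9% and 89.8%), Vcam1 and Ncam1 mainly with the group (87.4% and 86.9%).

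CD24 siRNA was next compared with scrambled siRNA within IBMX/Dex, which asks whether the knockdown alters these genes. Cd24a itself did not pass in this comparison: its difference was -0.90 (95% interval -1.87 to 0.06, limma adjusted p = 1 with and without the block), and without CD24 siRNA replicate 3 it was -1.42 (-2.12 to -0.73, adjusted p = 1, and 0.728 with the block). The second probe set of Cd24a gave -1.42 (-2.57 to -0.28, adjusted p = 1). In replicate order, the same-numbered differences were -2.05, -2.03 and -0.18 for that probe set and -1.04, -1.57 and -0.10 for the brightest one. Cd24a was thus clearly lower in the pairs numbered 1 and 2 and hardly so in the pair numbered 3. None of the 27 genes passed, with or without the block (limma, adjusted p = 1 for each), and 0 of them had an unadjusted p under 0.05 in either fit, the smallest being 0.129 without and 0.0668 with the block, both for Cd34. Over all genes 0.00% passed. An unadjusted limma p under 0.05 was found for 30 genes without the block (0.238%) and 219 with it (1.73%). The 0 of 27 is thus near the share of all genes. The groups did not overlap for 0 of the 27 genes and for 2.41% of all genes; without CD24 siRNA replicate 3, Itga3, Vcam1 and Cd44 lay lower without overlap (11.1%), against 8.98% of all genes in either direction. Differences ran from -0.19 for Itgb3 to 0.22 for Cd34.

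The intervals bound the differences between these arrays, in a comparison where the knockdown of Cd24a was itself not called. With the block, both 95% bounds lay within 1.5-fold for 25 of the 27 genes and within 2-fold for all 27. Without the block this held for 18 and 25. Since Cd24a on the array labelled CD24 siRNA replicate 3 lay only 0.10 below its scrambled counterpart, the blocked fit was repeated without it, as an alternative added after seeing the data. There the bounds lay within 1.5-fold for 23 genes and within 2-fold for 27. Differences ran from -0.40 for Postn to 0.20 for Itga2, and the smallest unadjusted limma p was 0.0518, for Vcam1. For the genes that changed against vehicle, the blocked difference between CD24 siRNA and scrambled siRNA over all arrays was -0.18 for Itga3 (95% interval -0.49 to 0.13), -0.11 for Vcam1 (-0.46 to 0.24), -0.16 for Mcam (-0.50 to 0.18), 0.10 for Ncam1 (-0.17 to 0.38) and -0.01 for Itgb5 (-0.31 to 0.28). Without CD24 siRNA replicate 3 it was -0.16 for Itga3, -0.32 for Vcam1 (-0.63 to 0.003), -0.05 for Mcam, 0.10 for Ncam1 and 0.15 for Itgb5. A p above the threshold does not show that the siRNAs act alike. Itga3, Itgb1 and Itgb3 were lower with CD24 siRNA in all 3 same-numbered pairs, as were 2 further genes, Cd44 and Cd9, while 2 genes were higher in all 3. The shares of all genes were 15.7% lower and 6.15% higher. For Cd9 the dimmer second probe set went the other way, higher in all 3 pairs (0.05, 0.24 and 0.26). In the pairs numbered 1 and 2 alone, 9 genes were lower in both (33.3%) and 4 higher (14.8%), against 25.1% and 18.3% of all genes.

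**Figure D4:**
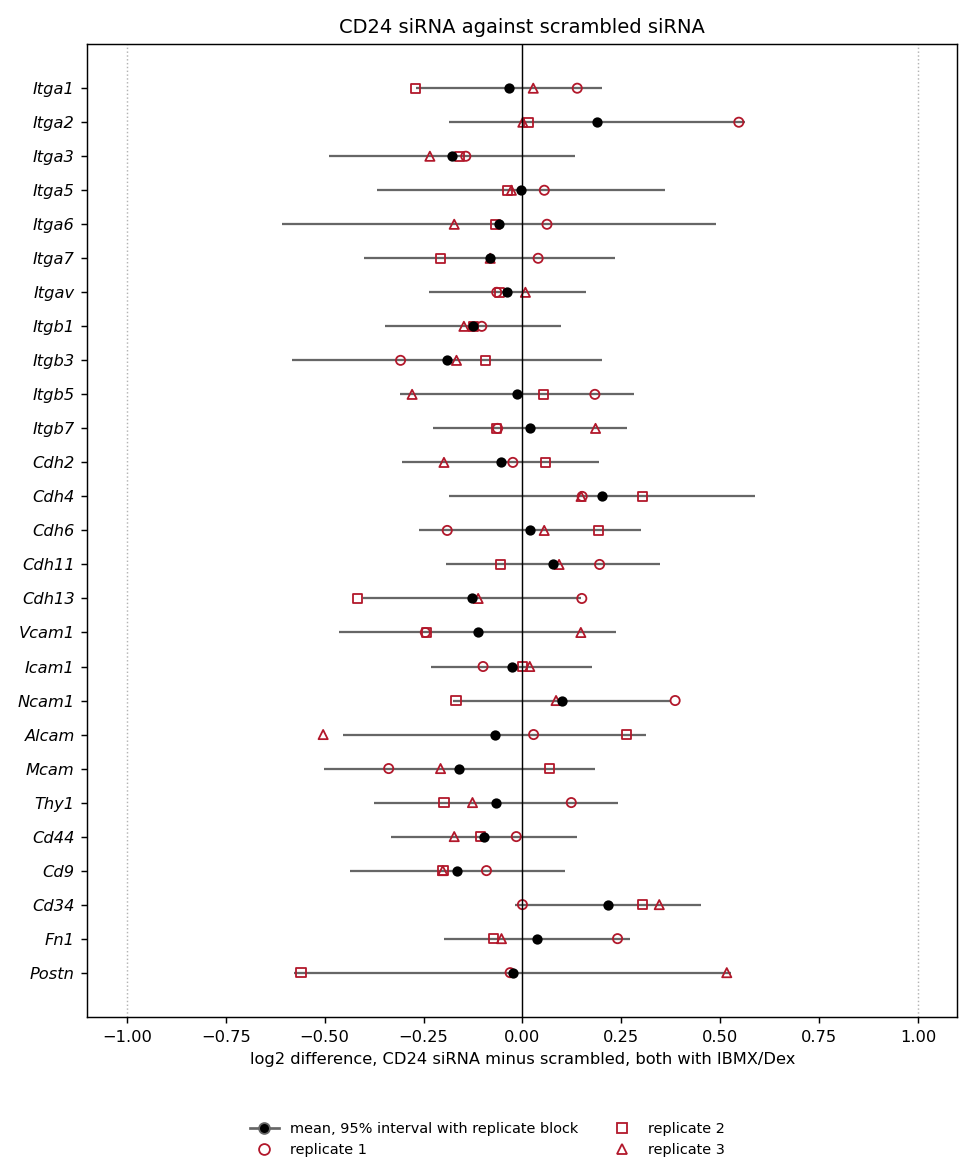
Log2 difference of CD24 siRNA minus scrambled siRNA, both with IBMX/Dex, for the 27 tested adhesion genes: black points with 95% intervals from the limma fit with the replicate block, open symbols for each same-numbered pair. All intervals include 0 and lie within the dotted lines at 2-fold.

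To see whether proteins that work with these receptors changed too, 4 lists of pathway genes were read from the same fits. The shares of all genes called, to read the counts against, are 6.65% with CD24 siRNA and 6.94% with scrambled siRNA without the block, and 22.4% and 23.3% with it. Of 27 tested intracellular integrin adhesion proteins, 4 fell and 0 rose with CD24 siRNA (14.8%), and 5 fell and 0 rose with scrambled siRNA (18.5%). With the block, 9 fell and 2 rose with CD24 siRNA (40.7%), and 8 fell and 1 rose with scrambled siRNA (33.3%). Tns3 and Tns2 are tensins, which link integrin tails to actin. Tns3 fell 3.24-fold with CD24 siRNA (-1.70 ± 0.36 SE, limma adjusted p = 0.0257) and 3.06-fold with scrambled siRNA (-1.61 ± 0.36, adjusted p = 0.0299). Tns2 fell 1.81-fold and 1.86-fold (adjusted p = 0.0110 and 0.00838). Tgfb1i1 (Hic-5, a paxillin relative) fell 1.77-fold and 1.75-fold (limma adjusted p = 0.0358 and 0.0369). Tln1, the integrin-activating protein talin, fell 1.54-fold and 1.57-fold (adjusted p = 0.0360 and 0.0306). Rsu1, a partner of the integrin-linked kinase complex, passed with scrambled siRNA alone, with differences of -0.30 and -0.44 (limma adjusted p = 0.108 and 0.0307), and the difference between the siRNAs did not pass. The median of this list was -0.19 with CD24 siRNA and -0.20 with scrambled siRNA, whereas that of all genes was 0.02.

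Of 8 tested cadherin-catenin proteins, 1 fell and 0 rose in each comparison (12.5%), a share that rests on a single gene. This was Afdn (afadin, which joins nectins to actin), 1.33-fold with CD24 siRNA and 1.32-fold with scrambled siRNA (limma adjusted p = 0.0369 and 0.0397). With the block 4 fell with CD24 siRNA (50.0%) and 3 with scrambled siRNA (37.5%). All 8 had a negative difference with CD24 siRNA and 7 with scrambled siRNA, with medians of -0.37 and -0.28.

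Among 19 tested matrix ligands of integrins, 2 rose and 0 fell in each comparison (10.5%). Lamc1, the laminin gamma chain, rose 1.57-fold with CD24 siRNA and 1.60-fold with scrambled siRNA (limma adjusted p = 0.0327 and 0.0271), and Fbln5, an elastic fibre protein that binds integrins, 2.02-fold and 2.09-fold (adjusted p = 0.0368 and 0.0310). With the block 4 and 3 ligands fell in addition (31.6% and 26.3% called in all). Of 34 tested other adhesion receptors, 2 fell and 0 rose with CD24 siRNA (5.88%), and 2 fell and 2 rose with scrambled siRNA (11.8%), so the count with CD24 siRNA did not stand above the share of all genes. Nectin2, a nectin of cell junctions, fell 1.98-fold and 1.84-fold (limma adjusted p = 0.0189 and 0.0279), and the protocadherin Pcdh18 1.97-fold and 1.98-fold (adjusted p = 0.0362 and 0.0343). Sdc1, a heparan sulphate proteoglycan, rose with scrambled siRNA by 2.18-fold (limma adjusted p = 0.0443) and was 2.08-fold higher with CD24 siRNA without passing (0.0543). Cd47, the thrombospondin receptor, was likewise 1.66-fold higher with scrambled siRNA (adjusted p = 0.0384) and 1.59-fold higher with CD24 siRNA (0.0520). With the block both passed in both comparisons, where 13 receptors were called with CD24 siRNA (38.2%) and 12 with scrambled siRNA (35.3%). Over the 4 lists, leaving out 1 array lowered the 9 calls with CD24 siRNA to as few as 2 (without CD24 siRNA replicate 2 or 3) and the 12 calls with scrambled siRNA to as few as 1 (without scrambled replicate 2). Without CD24 siRNA replicate 3 the 2 calls left were Tns2 (limma adjusted p = 0.0495) and the matrix ligand Thbs1, lower by 1.48 on the log2 scale (adjusted p = 0.0440), beside 2.54% of all genes. In the blocked fit without that array Tns3, Tns2, Tgfb1i1, Tln1, Afdn, Lamc1, Fbln5, Nectin2 and Pcdh18 each passed with CD24 siRNA, with adjusted p at most 0.0369. The fibroblast markers that fell in these comparisons are given above, and their part in the list values was not tested.

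**Figure D5:**
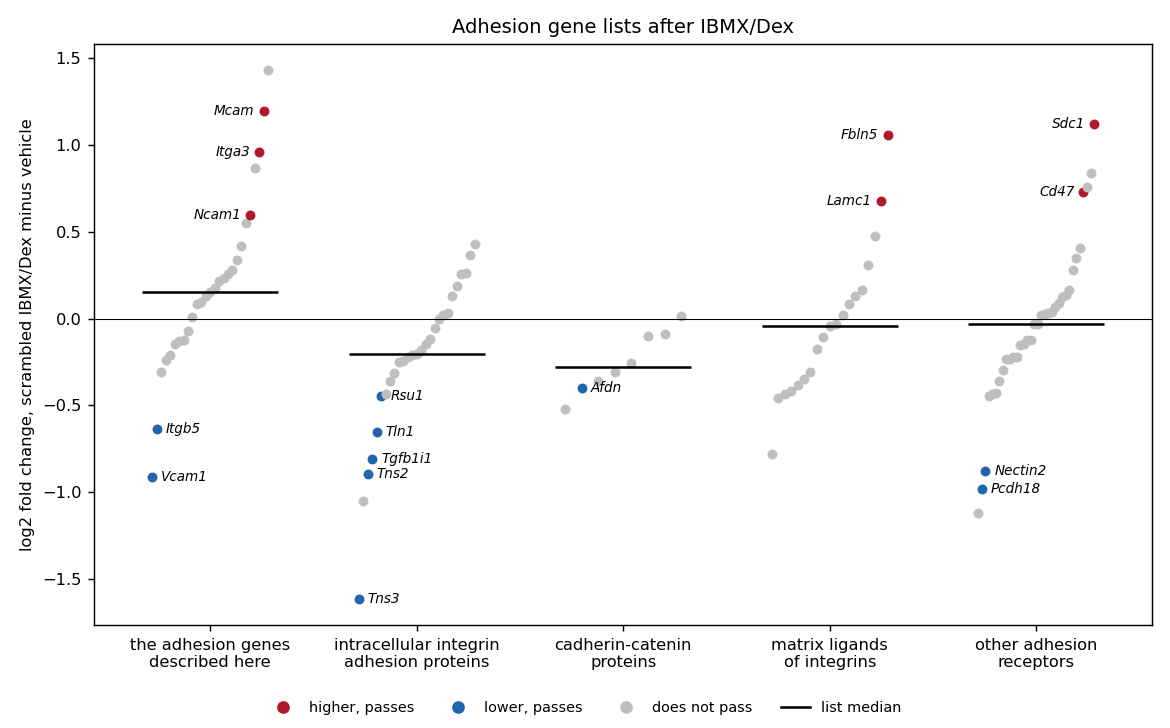
Log2 fold change of scrambled IBMX/Dex against vehicle for every tested gene of the 27 adhesion genes and of the 4 pathway lists, sorted within each list, with red for genes that passed as higher, blue for lower and grey for the rest (limma without the block), and black lines for list medians. The 5 intracellular integrin adhesion proteins that passed, Tns3 to Rsu1, all lie below 0.

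Promoter sequences are shown for Mcam and Itgb5, a gene that rose and a gene that fell, to set their letters beside the response to a cAMP-raising agent and a glucocorticoid. Of the 36 genes 23 matched an entry in the RefSeq promoter table (GRCm38.p6), among them Itga3, Itgb5 and Mcam of the 5 that changed. Each window is the 250 bases before the annotated start, 5′ to 3′ on the gene's strand, with a cAMP response element (TGACGTCA) in capitals.

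Mcam, chr9:44134408-44134657, plus strand: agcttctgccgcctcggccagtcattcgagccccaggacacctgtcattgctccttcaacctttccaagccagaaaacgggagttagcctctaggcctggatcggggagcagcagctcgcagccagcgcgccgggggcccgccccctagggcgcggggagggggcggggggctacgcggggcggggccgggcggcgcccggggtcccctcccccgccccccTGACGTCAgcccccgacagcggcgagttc
Itgb5, chr16:33829415-33829664, plus strand: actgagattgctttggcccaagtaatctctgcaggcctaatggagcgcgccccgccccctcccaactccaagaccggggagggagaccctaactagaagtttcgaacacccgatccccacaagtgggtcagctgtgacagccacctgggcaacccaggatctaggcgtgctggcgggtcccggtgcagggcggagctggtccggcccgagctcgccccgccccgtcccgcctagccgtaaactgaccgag

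The Mcam window held TGACGTCA at positions -29 to -22, counted back from the start with -1 as the base before it. The element reads the same on both strands. Among all 32851 promoter windows of the table, 508 held it (1.55%), and among the 23 genes Mcam did. The shorter form TGACG, searched on both strands, was in 17.8% of all windows and in those of Itga9, Itgb1, Alcam and Mcam; in Mcam its matches lie within the same 8 bases. The windows of Itgb5 and both annotated starts of Itga3 held none of the 6 motifs searched. The full palindromic glucocorticoid response element was in 0.00913% of all windows, an AP-1 site (TGACTCA) in 4.46% and an NF-kB site in 0.14%, and none of the 23 genes held any of them. The shorter glucocorticoid element AGAACA was in 16.1% of all windows and in those of Itga2, Itgb1 and Itgb7. A match describes letters in these windows and does not show that a factor binds there.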

How the data were processed

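Log2 expression values of 41345 probe sets on 9 single-colour arrays were used as the authors deposited them. The submitters' processing notes name RMA and the oligo package, with no version, for these log2 values; RMA gives arrays nearly the same distribution (medians 6.47 to 6.56) and compresses differences of dim probe sets. Per the labels, 250 ng of RNA was labelled.

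For each gene the brightest probe set with a single gene symbol was taken. Genes were tested where the third highest of 9 values reached the table's median, 6.51. A gene can pass that filter through its higher group alone. With limma 3.58.1 (R 4.3.3) differences were estimated on all 9 arrays with 1 mean per group, with two-sided p-values adjusted by Benjamini-Hochberg over 12630 genes at 0.05. The precision is limited by the number of arrays.

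Numbers in the titles were taken to pair the samples: deviations from group means correlated at 0.377 to 0.732 within a number and at most 0.116 otherwise. A fixed block for that number was therefore an alternative, beside leaving out each array, filters, normalizations, probe set means, the prior and only 6 arrays.

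The genes and lists were chosen with earlier results of these data known. Values on every array are given for genes past the threshold in either fit and for examples chosen after their values were seen (Itga6, Itga7, Itgb1, Cdh11, Fn1, Postn); up to 6 genes per pathway list that passed with scrambled siRNA are named. Promoters were shown only for genes that passed.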

Additional observations from a re-analysis of the deposited data

How the results depend on the processing

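Against vehicle, 5 of the adhesion genes were called in each comparison, and no alternative reversed the sign of a called gene. With the replicate block as a term the counts were 8 with CD24 siRNA and 9 with scrambled siRNA; in that fit without CD24 siRNA replicate 3, 8 and 10; with only the 6 arrays compared, 3 and 3; and with the block and number 1, 2 or 3 left out, 7, 9 and 7 with CD24 siRNA and 5, 7 and 7 with scrambled siRNA. Leaving out 1 array gave 1 to 6 with CD24 siRNA and 1 to 5 with scrambled siRNA. The other filters, normalizations, probe set rule and prior gave 4 to 6.

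Over all genes, 840 were called with CD24 siRNA and 876 with scrambled siRNA. The block gave 2831 and 2942, the block without CD24 siRNA replicate 3 gave 1763 and 2924, and the 6 arrays alone gave 461 and 389. The block without number 1, 2 or 3 gave 1299, 1755 and 1528 with CD24 siRNA and 1351, 1792 and 1758 with scrambled siRNA. Leaving out 1 array gave 321 to 857 and 313 to 852. The pathway lists held 9 and 12 calls, 34 and 29 with the block, and 2 to 12 and 1 to 10 without 1 array. The alternatives with fewer arrays had fewer samples; the cause of the other shifts was not tested. CD24 siRNA against scrambled siRNA gave 0 calls under every alternative run. Groups of 3 arrays and RMA's compression limit what can be seen of dim genes.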
